A study of Mus musculus with 38 samples.

Results

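The comparison asked which genes differed between tumor cells that had reached the lung and cells of the primary mammary carcinoma. It used 12 of the 38 arrays of the series, 6 samples labelled Disseminated cells and 6 labelled Carcinoma, all chosen by their titles. All samples came from the hyperplasia transplant model. Hyperplastic mammary tissue of MMTV-PyMT;actin-GFP mice of the FVB/n strain was grown in FVB/n females without the transgenes, in mammary fat pads from which their own gland had been removed. GFP-positive cells were then sorted by flow cytometry from late tumor outgrowths (carcinoma) or from the digested lungs of hosts with outgrowths of the same age (disseminated cells), and the lungs of several mice were pooled for each disseminated sample. By this design the sorted cells of both groups were to carry the PyMT oncogene and the GFP reporter, and neither label names a drug treatment. Whether every profiled cell carried them was not tested. The MMTV promoter drives PyMT mainly in mammary epithelium, whereas the actin promoter drives GFP in all donor cells, including stroma and leukocytes carried along in the graft.

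Tumor cells that leave the mammary gland through the blood can lodge in the lung before any metastasis is visible. The lung holds its own epithelium, a dense endothelium and the alveolar macrophages, resident phagocytes that clear surfactant and particles from the air spaces. Luminal cells of the mammary gland express simple-epithelium keratins, claudins and, when they differentiate, milk proteins.

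Each array compared the sample in Cy5 with a common reference RNA from mouse cell lines in Cy3, and each value below is the log2 ratio of sample to reference. A level can be compared between samples for 1 gene but not between genes. A gene was called when its adjusted p was below 0.05 in limma's moderated test over all 28786 genes and its groups differed at least 2-fold. The samples were labelled as separate, but nothing stated which mice they came from. In the main fit each p and SE rested on a spread estimated from all 22 arrays of carcinoma, disseminated, adenoma and metastasis samples. That spread is one between samples, and whether it is also one between mice is not known. Well above background were 67.5 to 76.7% of the spots on carcinoma arrays and 63.8 to 76.0% on disseminated arrays. The carcinoma arrays lay on 3 slides scanned on one day and the disseminated arrays on another 3 slides scanned on another day. Slide set, scan and group can therefore not be told apart, and the adenoma samples, which shared the slides of the disseminated samples, are given for some of the genes.

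Before any change is listed, the markers of the cells that a lung or tumor sort could hold were read in each sample. The 22 macrophage markers averaged between -0.58 and 0.54 in carcinoma 1 to 5, 4.39 in carcinoma 6 and between 3.05 and 4.76 in the disseminated samples. The 26 luminal markers averaged between 2.53 and 2.88 in carcinoma 1 to 5, 1.49 in carcinoma 6 and between 0.31 and 2.36 in the disseminated samples. The samples labelled disseminated tumor cells thus had more macrophage and less luminal signal than carcinoma 1 to 5, and the label of a tumor cell sample is only partly met by their markers. All 22 macrophage markers and 20 of the 26 luminal markers were well above background on all 6 disseminated arrays. In RNA of mixed cells, fewer cells of a type and less RNA per cell cannot be told apart.

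Carcinoma 6 stood apart from its group. Across all genes it correlated with carcinoma 1 to 5 at r = 0.740 to 0.772 and with the disseminated samples at r = 0.777 to 0.886, while carcinoma 1 to 5 correlated with each other at 0.931 to 0.976. The disseminated samples were less alike, at 0.668 to 0.936, and disseminated 6 was the most epithelial of them. Counts are therefore also given without carcinoma 6 where they changed, and each loss of a call on leaving it out is given for the genes named: Ctnnd1, Setd1b, Pola1 and Ccl20.

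**Figure D1:**
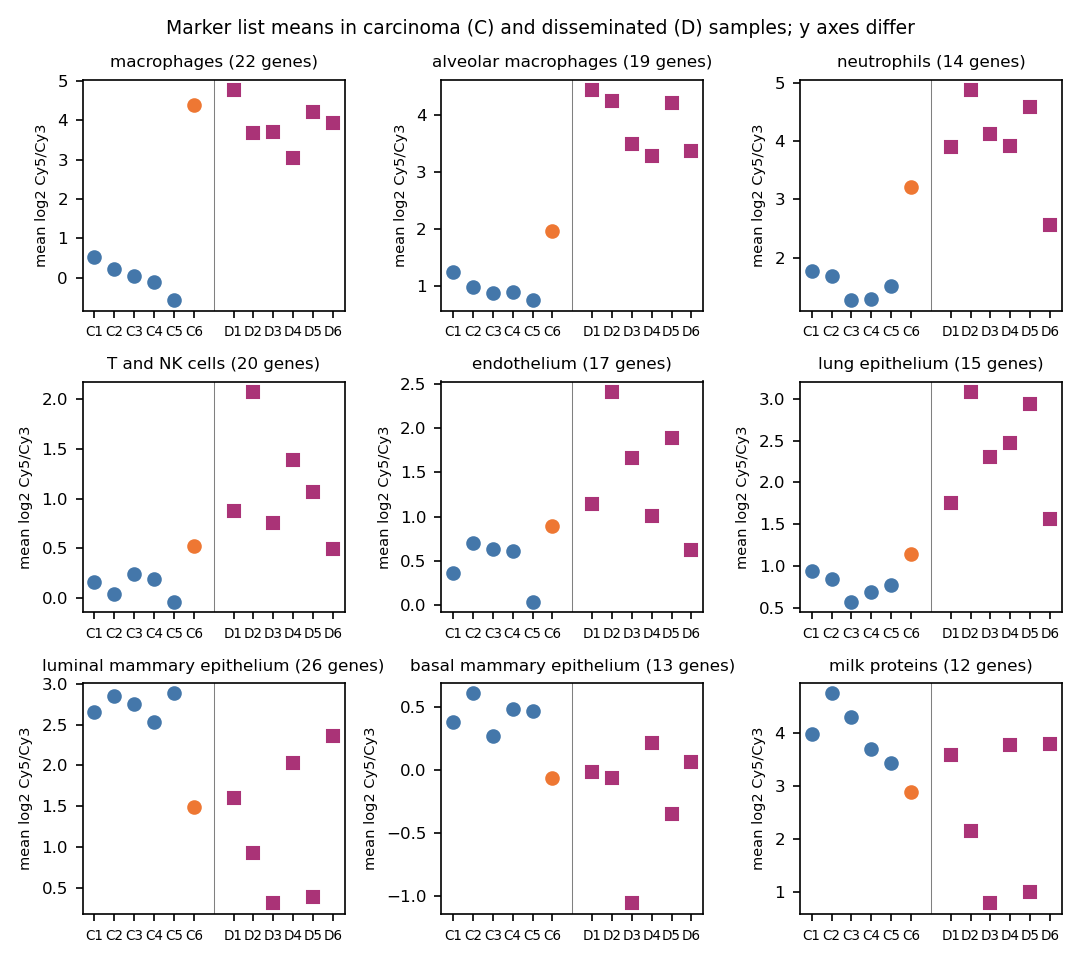
Mean log2 Cy5/Cy3 of 9 marker lists (y axis) in each carcinoma sample (C1 to C6, circles, C6 in orange) and each disseminated sample (D1 to D6, squares). For the macrophage list carcinoma 6 (4.39) sits among the disseminated samples (3.05 to 4.76), and for the alveolar macrophage list it lies at 1.98, below all 6 of them (3.28 to 4.44).

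In all, 3330 of 28786 genes (11.6%) were called, 1582 higher (5.5%) and 1748 lower (6.07%) in the disseminated samples. At a 4-fold difference the split turned: 580 genes (2.01%) were higher and 257 (0.893%) lower. The 6 disseminated values lay above all 6 carcinoma values for 610 genes (2.12%) and below them for 1461 genes (5.08%). Without carcinoma 6, 4115 genes (14.3%) were called, 1888 higher (6.56%) and 2227 lower (7.74%), and 3253 genes were called in the same direction both ways. Without normalization of the ratios between arrays the balance of calls shifted from 47.5% to 57.7% higher (1906 higher, 1395 lower). Aquantile, which leaves the log2 ratios as they are, gave the same counts. Of the 110 called genes that were followed through all alternatives, Plet1, Ms4a1, Krt8, Cldn3, Lao1, Timp2, Itgb6, Ctnnd1, Cox5b and Dyrk3 lost their call without this normalization.

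**Figure D2:**
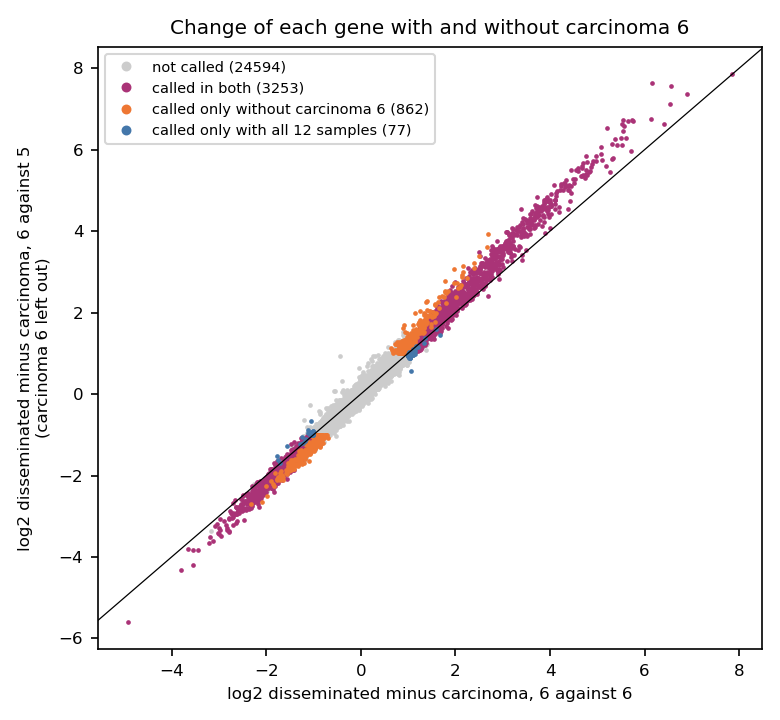
Log2 difference between disseminated and carcinoma samples for each of 28786 genes with all 12 samples (x axis) and without carcinoma 6 (y axis), with the line of equality. Large differences lie farther from 0 without carcinoma 6, and 862 genes were called only then against 77 called only with it.

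For most of the genes called without it, carcinoma 6 was closer to the other group. Of the 1888 genes called higher without it, carcinoma 6 lay nearer to the mean of the disseminated samples for 1277 (67.6%), and of the 2227 called lower for 1545 (69.4%).

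Among the 15 largest rises without overlap between the groups were those of myeloid and alveolar macrophage genes. Chil3, a secreted chitinase-like protein of alveolar macrophages also known as Ym1, ranged from -0.63 to 0.45 (median 0.033) in the carcinoma samples and from 4.99 to 10.55 (median 7.88) in the disseminated samples. Carcinoma 6 (-0.016) lay within the range of the other carcinomas, and the difference was 229.9-fold (log2 7.84 ± 0.97 SE, adjusted p = 3.36e-05). Its homolog Chil4 ranged from 0.42 to 1.68 (median 0.49) in the carcinoma samples and from 4.67 to 7.24 (median 5.92) in the disseminated samples, a difference of 38.5-fold (log2 5.27 ± 0.53 SE, adjusted p = 5.45e-06). The eosinophil-associated ribonucleases Rnase2a, Ear1 and Ear10, which alveolar macrophages also make, were up-regulated 92.4-fold, 70.8-fold and 85.2-fold (adjusted p = 5.03e-06, 5.19e-06 and 7.28e-09). Members of the ribonuclease family, like Chil3 and Chil4, are close in sequence, so a probe may read more than 1 of them. Ear10 was not among the 15, for it was well above background on only 1 of 6 carcinoma arrays. Its fold change is thus set against a carcinoma level near background. With the scanner's processed signals Ear1 rose by log2 4.13. Unlike for Chil3, carcinoma 6 lay between the other carcinomas and the disseminated samples for the other 4 genes. It was 1.68 for Chil4 (at most 0.67 in carcinoma 1 to 5) and 4.08 for Rnase2a (at most 1.91). For Ear1 it was 4.77 (at most 2.82) and for Ear10 1.46 (at most 0.38).

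Other large rises were of genes expressed in leukocytes in general, and here too carcinoma 6 lay between the other carcinomas and the disseminated samples. Fpr2, the formyl peptide receptor of phagocytes, ranged from 0.44 to 1.36 (median 0.84) in carcinoma 1 to 5, was 4.89 in carcinoma 6 and ran from 5.76 to 8.14 (median 7.06) in the disseminated samples. It differed 49.0-fold (log2 5.61 ± 0.67 SE, adjusted p = 2.68e-05) and, without carcinoma 6, by log2 6.29. Treml4, a myeloid receptor of the TREM family, differed 43.0-fold (log2 5.43 ± 0.76 SE, adjusted p = 9.16e-05). Itgal, the alpha chain of the leukocyte integrin LFA-1, ranged from -2.54 to -1.65 (median -2.21) in carcinoma 1 to 5, was 1.49 in carcinoma 6 and ran from 3.01 to 5.23 (median 3.52) in the disseminated samples, a rise of 45.7-fold (log2 5.52 ± 0.65 SE, adjusted p = 2.05e-05). Spn, the leukocyte surface sialoprotein CD43, rose 39.5-fold, Adgre5, the adhesion receptor CD97, 14.6-fold, and Slc15a3, a lysosomal histidine and peptide transporter, 16.1-fold (adjusted p = 0.000113, 7.89e-05 and 0.00105). The protease inhibitor Serpina3g, the WAVE complex subunit Cyfip2 and the GTPase-activating protein Arhgap30 rose 21.9-, 16.2- and 14.4-fold (adjusted p = 0.000151, 0.000100 and 0.000219). Averaged over all its probes, Spn rose by log2 2.21. These 9 genes were picked for having no overlap between the groups, so the lack of overlap is not a result. By the same rule carcinoma 6 had to lie below every disseminated sample.

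**Figure D3:**
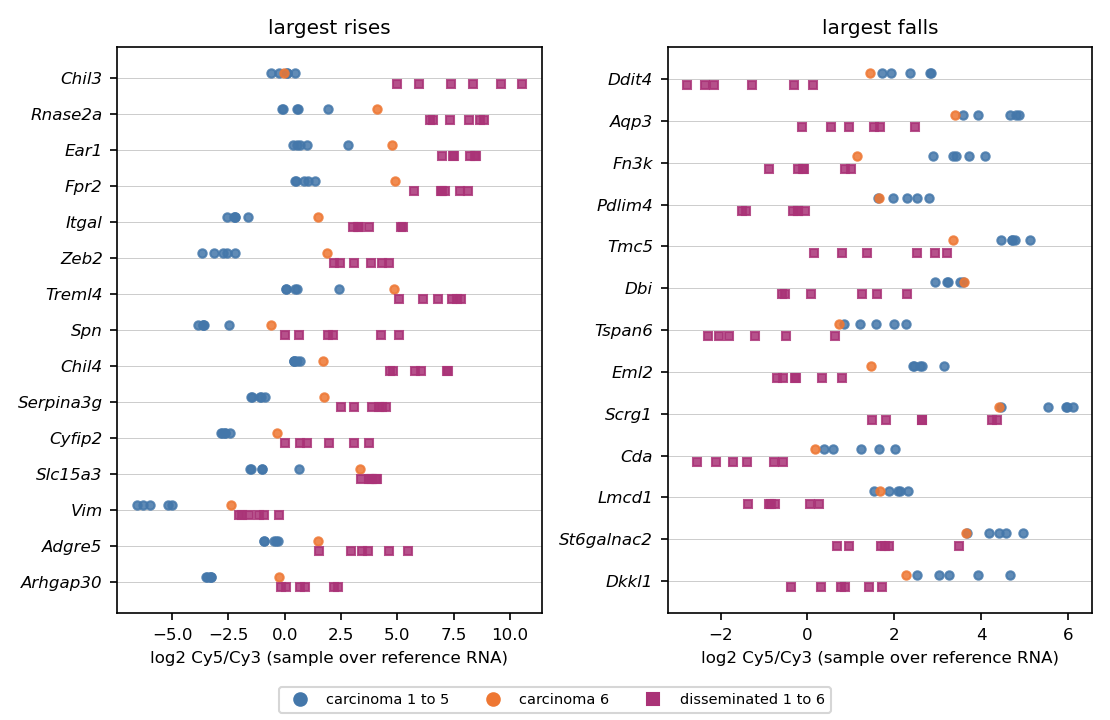
Log2 Cy5/Cy3 (x axis) of the 15 largest rises and of 13 of the 15 largest falls without overlap between groups; circles are carcinoma samples (carcinoma 6 in orange) and squares disseminated samples. Chil3 in carcinoma 6 sat with the other carcinomas, whereas for Slc15a3 and Arhgap30 carcinoma 6 lay next to the lowest disseminated sample.

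Several of the genes that rose have a purine-rich ETS site near their start. The site of the myeloid ETS factor PU.1, encoded by Spi1, which rose too, holds the letters AGGAAGT, and windows of 80 bases around it are shown for 5 genes that rose because these are myeloid genes described here. Each window was read from the RefSeq promoter table of build GRCm38.p6, 5′ to 3′ on the strand of the gene. Capitals mark AGGAAGT or its reverse complement ACTTCCT.
Chil3 (chr3:106167581-106167660, minus strand): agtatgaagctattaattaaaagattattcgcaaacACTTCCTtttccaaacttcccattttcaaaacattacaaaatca
Chil4 (chr3:106219525-106219604, minus strand): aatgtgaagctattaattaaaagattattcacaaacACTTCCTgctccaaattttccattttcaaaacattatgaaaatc
Spn (chr7:127137824-127137903, minus strand): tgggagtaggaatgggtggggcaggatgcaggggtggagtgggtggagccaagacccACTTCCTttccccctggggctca
Lyz2 (chr10:117282329-117282408, minus strand): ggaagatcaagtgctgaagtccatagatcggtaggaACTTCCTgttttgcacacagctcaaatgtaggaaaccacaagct
S100a8 (chr3:90668863-90668942, plus strand): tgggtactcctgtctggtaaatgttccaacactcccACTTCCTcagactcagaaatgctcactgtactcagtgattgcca

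The site lies 56 bases before the start of Chil3, 85 before that of Chil4, 19 before that of Spn, 96 before that of Lyz2 and 168 before that of S100a8. It is not limited to myeloid genes. The endothelial gene Flt1 and the platelet gene Pf4, which were also called higher, hold it 49 and 6 bases before their starts. A promoter of 300 bases, 250 before and 50 after the start, was listed for 14619 of the 28786 genes tested. AGGAAGT on either strand was in 8.91% of these promoters, in 16.4% of the 1036 promoters of genes called higher and in 7.31% of the 1177 promoters of genes called lower. Among the named genes it was in 9 of 47 promoters of those called higher (19.1%) and in 2 of 30 of those called lower (6.67%). The longer form GAGGAAGT, which contains it, was in 2.77, 6.56 and 2.12%. The grainyhead letters AACCGGT were in 1.31% of all promoters, 0.772% of those called higher and 1.87% of those called lower. The hypoxia core ACGTG (22.1, 22.8 and 22.6%) and CCAAT (38.8, 36 and 38.8%) were also searched on both strands. These shares describe letters in a window and not binding, and they were not tested.

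Of the 22 macrophage markers, 16 (72.7%, against 5.5% of all genes) were called higher and none lower. Their median change was log2 3.24, against -0.0664 over all genes. Without carcinoma 6, 21 were called and the median was 3.99. Csf1r, the receptor for the macrophage growth factor Csf1, ranged from -1.34 to -0.21 (median -0.80) in carcinoma 1 to 5, was 4.03 in carcinoma 6 and ran from 3.16 to 5.24 (median 4.17) in the disseminated samples. Carcinoma 6 sat inside the disseminated range, and the difference was 18.6-fold (log2 4.22 ± 0.83 SE, adjusted p = 0.00126) or log2 5.02 without it and log2 2.39 as the mean of all probes of the gene. Adgre1, the macrophage surface protein F4/80, behaved alike, with 3.39 in carcinoma 6, at most -1.31 in carcinoma 1 to 5 and 2.31 to 3.49 in the disseminated samples (log2 4.23 ± 0.99 SE, adjusted p = 0.00420). The lysozyme gene Lyz2 rose 46.6-fold (log2 5.54 ± 1.17 SE, adjusted p = 0.00205), the lysosomal protease Ctss 71.7-fold (log2 6.16 ± 1.54 SE, adjusted p = 0.00621) and the signaling adaptor Tyrobp 12-fold (log2 3.58 ± 0.84 SE, adjusted p = 0.00412). In each of these 3 genes carcinoma 6 also lay within the disseminated range, and without it the rises were log2 6.74 for Lyz2, 7.64 for Ctss and 4.41 for Tyrobp. Spi1 was different, for carcinoma 6 (0.0069) lay below the lowest disseminated sample (0.36), and it rose 3.93-fold (log2 1.97 ± 0.38 SE, adjusted p = 0.00104). Cd14, a receptor for bacterial lipopolysaccharide, was not called with all samples (log2 1.63 ± 0.80 SE, adjusted p = 0.139) and was called without carcinoma 6 (log2 2.26, adjusted p = 0.0201).

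Of 19 alveolar macrophage markers, 16 (84.2%, against 5.5% of all genes) were called higher and 1 lower (5.26%, against 6.07%), with or without carcinoma 6. Marco, a scavenger receptor of alveolar macrophages, ranged from 0.73 to 1.35 (median 0.91) in the carcinoma samples and from 2.70 to 5.51 (median 4.22) in the disseminated samples. Carcinoma 6, at 0.94, lay with its own group, and Marco rose 10.66-fold (log2 3.41 ± 0.35 SE, adjusted p = 6.04e-06). Abcg1, a cholesterol exporter, rose 6.59-fold (log2 2.72 ± 0.39 SE, adjusted p = 0.000113) and Fabp4, a fatty acid binding protein, 3.71-fold (log2 1.89 ± 0.51 SE, adjusted p = 0.00978). Fabp4 in carcinoma 6 (4.72) was within the disseminated range, and Abcg1 (2.14) just below it. Plet1 was the lower member, and it is also an epithelial gene: it ranged from 8.82 to 11.12 (median 10.60) in the carcinoma samples and from 7.12 to 9.05 (median 8.18) in the disseminated samples and fell 5.06-fold (log2 -2.34 ± 0.49 SE, adjusted p = 0.00205). Ear2 and Siglec5 of the list were not measured.

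Neutrophil genes were also up-regulated, 10 of 14 (71.4%, against 5.5% of all genes) with and without carcinoma 6. Retnlg, a secreted resistin-like protein of neutrophils, ranged from 0.23 to 1.48 (median 0.34) in carcinoma 1 to 5, was 4.34 in carcinoma 6 and ran from 3.50 to 6.42 (median 6.16) in the disseminated samples, a rise of 21.2-fold (log2 4.40 ± 0.81 SE, adjusted p = 0.000816). It was well above background on 3 of 6 carcinoma arrays. Hdc, the histamine-forming enzyme, rose 5.89-fold (log2 2.56 ± 0.62 SE, adjusted p = 0.00505). The calgranulins S100a9 and S100a8 rose 5.74-fold (log2 2.52 ± 0.81 SE, adjusted p = 0.0266) and 4.12-fold (log2 2.04 ± 0.64 SE, adjusted p = 0.0237). Both are near the threshold: S100a9 lost its call without carcinoma 3, 4 or 5 or disseminated 1, 3 or 5 (adjusted p up to 0.0689), and S100a8 without carcinoma 1 or 2 or disseminated 2, 3 or 5 (up to 0.0570). Ltf, lactoferrin of neutrophils and of milk, was not called (log2 -0.57 ± 0.34 SE, adjusted p = 0.225). The list mean of disseminated 6 was 2.56, below the 3.21 of carcinoma 6 and above the 1.27 to 1.77 of carcinoma 1 to 5.

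Some lymphocyte genes rose. Of 20 T and NK cell genes 6 (30%, against 5.5% of all genes) were called higher, or 7 without carcinoma 6. The cytotoxic protease Gzmb ranged from 0.63 to 1.58 (median 0.92) in the carcinoma samples and from 2.58 to 4.90 (median 3.53) in the disseminated samples, with no overlap, and rose 6.17-fold (log2 2.62 ± 0.43 SE, adjusted p = 0.000315). Il2rb, the beta chain of the interleukin 2 receptor, rose 5.42-fold (log2 2.44 ± 0.62 SE, adjusted p = 0.00707), and its adenoma values, 2.61 to 6.06, reached above those of the disseminated samples. Cd3e, a subunit of the T cell receptor complex, was not called (log2 -0.26 ± 0.15 SE, adjusted p = 0.201), although Cd3d and Cd3g of the same complex were. Ccl5 was called only without carcinoma 6 (log2 2.73, adjusted p = 0.0285; with all samples log2 2.04 ± 0.98 SE, adjusted p = 0.134). Of 11 B cell genes, Cd79b, Ms4a1 and Cd22 were called higher (27.3%) and Ly6d lower (9.09%), against 5.5 and 6.07% of all genes. Cd79b, which encodes a part of the B cell receptor, rose 4.42-fold (log2 2.14 ± 0.63 SE, adjusted p = 0.0164). The surface protein gene Ms4a1 rose 3.88-fold (log2 1.96 ± 0.64 SE, adjusted p = 0.0288) and lost its call without carcinoma 2 or 4 or disseminated 2 or 5 (up to 0.0575). Of 10 dendritic cell genes 2 (20%) were called higher, and 1 was called lower only without carcinoma 6. Called higher were the transcription factor Irf8, up 7.03-fold (log2 2.81 ± 0.63 SE, adjusted p = 0.00316), and the lymph node homing receptor Ccr7, up 5.83-fold (log2 2.54 ± 0.71 SE, adjusted p = 0.0124).

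Genes of lung and vessel cells were also among those called higher. Of 15 lung epithelial genes 8 (53.3%, against 5.5% of all genes) were called higher, with and without carcinoma 6, and none lower. The list averaged 0.57 to 1.14 in the carcinoma samples against 1.56 to 3.08 in the disseminated samples. The surfactant protein gene Sftpc ranged from 1.15 to 3.29 (median 1.95) in the carcinoma samples and from 4.99 to 5.69 (median 5.40) in the disseminated samples and rose 9.44-fold (log2 3.24 ± 0.54 SE, adjusted p = 0.000378). Scgb1a1, the secretoglobin of club cells, rose 6.15-fold (log2 2.62 ± 0.32 SE, adjusted p = 2.68e-05), Scgb3a2, another airway secretoglobin, 5.50-fold (log2 2.46 ± 0.59 SE, adjusted p = 0.00483), and Napsa, a protease that processes surfactant protein, 17.2-fold (log2 4.11 ± 0.72 SE, adjusted p = 0.000551). For Sftpc and Scgb1a1 no disseminated sample overlapped a carcinoma sample. For Napsa carcinoma 6 (0.93) lay within the disseminated range, whose lowest value was 0.26, while carcinoma 1 to 5 reached at most -2.75. Of 17 endothelial genes 6 (35.3%, against 5.5% of all genes) were called higher. Vwf, the von Willebrand factor, ranged from -0.26 to 1.71 (median 0.42) in the carcinoma samples and from 2.51 to 4.74 (median 4.21) in the disseminated samples and rose 9.98-fold (log2 3.32 ± 0.43 SE, adjusted p = 4.92e-05). The vascular endothelial growth factor receptor Flt1 rose 2.30-fold (log2 1.20 ± 0.35 SE, adjusted p = 0.0158) on the probe used, and 2 of its 5 probes had a negative difference.

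A few platelet and red cell genes were called. Of 8 platelet genes 2 (25%, against 5.5% of all genes) were called higher. These were the chemokines Pf4 and Ppbp, up 10.5-fold (log2 3.39 ± 1.22 SE, adjusted p = 0.0457) and 9.23-fold (log2 3.21 ± 0.39 SE, adjusted p = 3.19e-05). Pf4 was highest in carcinoma 6 (3.55, against -0.60 to 2.70 in the disseminated samples). It lost its call on leaving out any of carcinoma 1 to 5 or disseminated 1, 2, 4 or 5 (adjusted p up to 0.0988), which left 1 platelet gene called. Of 7 erythroid genes 2 (28.6%) were called higher. Hba-a1, an alpha globin, rose 3.59-fold (log2 1.85 ± 0.32 SE, adjusted p = 0.000551) and Alas2, the heme synthesis enzyme of red cells, 3.60-fold (log2 1.85 ± 0.44 SE, adjusted p = 0.00447). Of 11 fibroblast genes none was called higher and 1 (9.09%, near the 6.07% of all genes) lower. It was the matrix protein gene Postn, lower by 3.09-fold (log2 -1.63 ± 0.41 SE, adjusted p = 0.00611). Dcn, decorin, was not called (log2 1.08 ± 0.66 SE, adjusted p = 0.242). The part that cells of these types had in the changes above was not tested.

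Mammary epithelial genes were called in the other direction. Of the 26 luminal genes none was called higher and 7 (26.9%, against 6.07% of all genes) were called lower, or 11 without carcinoma 6 and 12 without disseminated 4. The median change was log2 -1.24 with all samples. The keratin gene Krt8 ranged from 3.31 to 5.15 (median 4.79) in carcinoma 1 to 5, was 1.77 in carcinoma 6 and ran from -1.65 to 4.22 (median 1.01) in the disseminated samples. Disseminated 6 held the highest disseminated value, and the fall was 9.18-fold (log2 -3.20 ± 1.01 SE, adjusted p = 0.0242). Its partner Krt18 ranged from 1.76 to 3.21 (median 3.15) in carcinoma 1 to 5, was 0.96 in carcinoma 6 and ran from -2.82 to 2.34 (median -0.69) in the disseminated samples and fell 9.12-fold (log2 -3.19 ± 0.92 SE, adjusted p = 0.0148). The Krt8 call was lost without carcinoma 2, 3 or 5 or disseminated 3 or 5 (adjusted p up to 0.0639) and that of Krt18 on leaving out no sample. The tight junction proteins Cldn7 and Cldn3 fell 5.92-fold (log2 -2.57 ± 0.65 SE, adjusted p = 0.00654) and 2.75-fold (log2 -1.46 ± 0.38 SE, adjusted p = 0.00768).

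The epithelial surface protein Epcam varied widely among the disseminated samples. It ranged from 3.18 to 3.79 (median 3.41) in the carcinoma samples and from -0.46 to 5.45 (median 0.99) in the disseminated samples, and disseminated 6, with the highest value, exceeded every carcinoma sample. Epcam was not called with all samples (log2 -1.99 ± 0.88 SE, adjusted p = 0.0994) and was called without disseminated 6 (log2 -2.79, adjusted p = 0.00743). Cdh1, E-cadherin, was not called (log2 -1.04 ± 0.56 SE, adjusted p = 0.181), and its values overlapped, 1.71 to 3.12 and 0.27 to 3.06. None of the 13 basal genes was called; the basal keratins Krt14 (log2 -0.83 ± 0.40 SE, adjusted p = 0.133) and Krt5 (log2 -0.59 ± 0.30 SE, adjusted p = 0.154) were not called.

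Of 12 milk protein genes 2 were called lower (16.7%, against 6.07% of all genes). Mfge8, a lipid globule protein, ranged from 3.08 to 5.79 (median 4.53) in the carcinoma samples and from -1.42 to 3.11 (median 0.93) in the disseminated samples and fell 11.7-fold (log2 -3.54 ± 0.87 SE, adjusted p = 0.00557). Lao1, an amino acid oxidase of milk, fell 6.19-fold (log2 -2.63 ± 0.80 SE, adjusted p = 0.0203), and lost its call without disseminated 3 (adjusted p = 0.0543), which left 1 milk protein gene called; without carcinoma 6 there were 3. The casein gene Csn2 had overlapping values, from 5.09 to 8.45 (median 6.93) in the carcinoma samples and from 2.05 to 8.98 (median 6.80) in the disseminated samples, and was not called (log2 -0.93 ± 1.43 SE, adjusted p = 0.679). Wap, the whey acidic protein, was not called with all samples (log2 -2.0 ± 0.77 SE, adjusted p = 0.0590) and was called without carcinoma 6 or without disseminated 1, 2 or 4 (adjusted p = 0.0365 to 0.0481 in these 4 fits).

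Of 26 junction genes 4 were called lower (15.4%, against 6.07% of all genes) and 1 higher (3.85%, against 5.5%). Without carcinoma 6 or without disseminated 4, 8 were lower, without disseminated 6, 10, and without carcinoma 1, 2 or 5 or disseminated 5, 2. The polarity protein gene Crb3 ranged from 2.76 to 4.81 (median 4.46) in the carcinoma samples and from 0.36 to 3.09 (median 2.33) in the disseminated samples, and fell 4.68-fold (log2 -2.23 ± 0.63 SE, adjusted p = 0.0129). Pkp3, plakophilin of desmosomes, fell 3.27-fold (log2 -1.71 ± 0.49 SE, adjusted p = 0.0148); Tjp3 and Ocln were the other members called lower. F11r, the junction adhesion molecule, was called without disseminated 6 (log2 -2.21, adjusted p = 0.00261) and not with all samples (log2 -1.60 ± 0.62 SE, adjusted p = 0.0623). Ctnnd1, p120 catenin, was the higher member, up 2.20-fold (log2 1.14 ± 0.41 SE, adjusted p = 0.0462), and lost its call without carcinoma 1, 2, 3, 4 or 6 or disseminated 1, 5 or 6 (up to 0.102).

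Genes often used to read an epithelial-mesenchymal transition were called both ways. Of 15, 4 were higher (26.7%, against 5.5% of all genes), Zeb2, Vim, S100a4 and Zeb1, and 1, Snai1, was lower (6.67%, against 6.07%). Vim, the intermediate filament of mesenchymal cells and leukocytes, ranged from -6.57 to -4.98 (median -5.98) in carcinoma 1 to 5, was -2.36 in carcinoma 6 and ran from -2.02 to -0.27 (median -1.35) in the disseminated samples. It rose 15.2-fold (log2 3.93 ± 0.68 SE, adjusted p = 0.000523), and carcinoma 6 lay next to the disseminated samples. Zeb2, a transcription repressor also made by myeloid cells, ranged from -3.69 to -2.21 (median -2.72) in carcinoma 1 to 5, was 1.88 in carcinoma 6 and ran from 2.21 to 4.64 (median 3.45) in the disseminated samples, a rise of 45.1-fold (log2 5.50 ± 0.88 SE, adjusted p = 0.000276). S100a4, a calcium-binding protein of fibroblasts and leukocytes, rose 12.3-fold (log2 3.63 ± 0.88 SE, adjusted p = 0.00534), and its highest carcinoma value was that of carcinoma 6 (-0.41). Snai1, which represses E-cadherin, fell 2.52-fold (log2 -1.33 ± 0.41 SE, adjusted p = 0.0212), and lost its call without carcinoma 2 or 3 (up to 0.0594). Vim, Zeb2 and S100a4 are expressed by macrophages too, and the macrophage list mean moved with them (-0.58 to 0.54 in carcinoma 1 to 5, 4.39 in carcinoma 6 and 3.05 to 4.76 in the disseminated samples); its part in these rises was not tested.

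The largest falls, among genes picked for having no overlap between the groups, were of genes of varied function. Ddit4, an inhibitor of mTOR complex 1 induced by hypoxia and stress, ranged from 1.44 to 2.85 (median 2.15) in the carcinoma samples and from -2.77 to 0.12 (median -1.71) in the disseminated samples. Carcinoma 6 (1.44) was the lowest carcinoma sample, and the fall was 12.5-fold (log2 -3.65 ± 0.69 SE, adjusted p = 0.00102). Its adenoma values were -2.06 to 0.39, and disseminated minus adenoma was log2 -0.51, adjusted p = 0.664. Aqp3, a water and glycerol channel, fell 8.22-fold (log2 -3.04 ± 0.70 SE, adjusted p = 0.00376), and Fn3k, fructosamine-3-kinase, 8.04-fold (log2 -3.01 ± 0.53 SE, adjusted p = 0.000549). Against adenoma the differences were log2 -0.65, adjusted p = 0.572, for Aqp3, and -2.21, adjusted p = 0.00875, for Fn3k.

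Among the other large falls, Pdlim4, a PDZ and LIM domain protein, ranged from 1.63 to 2.80 (median 2.13) in the carcinoma samples and from -1.50 to -0.048 (median -0.28) in the disseminated samples and fell 6.81-fold (log2 -2.77 ± 0.32 SE, adjusted p = 1.49e-05). Dbi, the acyl-CoA binding protein, ranged from 2.95 to 3.60 (median 3.38) in the carcinoma samples and from -0.59 to 2.30 (median 0.67) in the disseminated samples, and fell 6.32-fold (log2 -2.66 ± 0.42 SE, adjusted p = 0.000239). Carcinoma 6 held the highest Dbi value, so here it did not lie toward the disseminated samples. Tmc5, Tspan6, Eml2, Scrg1 and Cda, cytidine deaminase, fell 6.47-, 6.20-, 5.92-, 5.83- and 5.75-fold (adjusted p = 0.00228, 0.00265, 0.000158, 0.00174 and 0.000554). Lmcd1, the sialyltransferase gene St6galnac2 and Dkkl1 fell 5.75-, 5.65- and 5.62-fold (adjusted p = 3.92e-05, 0.00317 and 0.000821).

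Against the adenoma samples on the same slides, several of these genes were not called. The differences of disseminated minus adenoma, which share the disseminated samples with those above, were log2 -0.69, adjusted p = 0.146, for Pdlim4, -0.86, adjusted p = 0.338, for Tspan6, -0.24, adjusted p = 0.725, for Eml2, and -1.06, adjusted p = 0.217, for St6galnac2. For Tmc5, Dbi, Scrg1, Cda, Lmcd1 and Dkkl1 they were log2 -3.84, -2.09, -2.70, -2.41, -3.23 and -2.97 (adjusted p = 0.000558, 0.00341, 0.00280, 0.00206, 1.24e-05 and 0.000714). Among the large rises Serpina3g differed from adenoma by log2 0.92, adjusted p = 0.373, with adenoma values of 1.23 to 3.80. The same difference was log2 7.79 for Rnase2a, 7.70 for Ear1, 6.69 for Fpr2, 4.29 for Itgal, 5.08 for Zeb2, 6.42 for Treml4, 3.52 for Spn and 5.71 for Chil4. It was log2 3.05 for Cyfip2, 3.36 for Slc15a3, 3.53 for Vim, 3.94 for Adgre5 and 3.39 for Arhgap30, and all 13 of these rises against adenoma were called (adjusted p = 8.35e-07 to 0.00690).

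Interleukin 6 signals through its own receptor Il6ra and the shared chain Il6st, the kinase Jak2 and the transcription factor Stat3, and Socs3 and Prdm1 are among the genes it can induce. Il6 ranged from -0.30 to 2.11 (median 1.57) in carcinoma 1 to 5, was 4.66 in carcinoma 6 and ran from 3.15 to 7.07 (median 5.37) in the disseminated samples. It rose 8.88-fold (log2 3.15 ± 0.75 SE, adjusted p = 0.00473), and log2 3.70 without carcinoma 6, which lay within the disseminated range. Il6ra ranged from 0.56 to 1.0 (median 0.76) in the carcinoma samples and from -0.093 to 0.57 (median 0.35) in the disseminated samples; the difference was log2 -0.46 ± 0.11 SE, adjusted p = 0.00520, short of the 2-fold threshold. Il6st (log2 0.45 ± 0.22 SE, adjusted p = 0.149) and Stat3 (log2 -0.40 ± 0.26 SE, adjusted p = 0.269) were not called.

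Jak2 ranged from -1.43 to -1.15 (median -1.17) in carcinoma 1 to 5, was 0.034 in carcinoma 6 and ran from 0.28 to 2.27 (median 1.27) in the disseminated samples, with no overlap, and rose 4.81-fold (log2 2.27 ± 0.42 SE, adjusted p = 0.000790). Prdm1, the transcription repressor Blimp1, ranged from -1.75 to -1.19 (median -1.54) in carcinoma 1 to 5, was 1.20 in carcinoma 6 and ran from 0.83 to 3.19 (median 1.52) in the disseminated samples, and rose 7.70-fold (log2 2.94 ± 0.56 SE, adjusted p = 0.00105). Socs3, which inhibits the receptor complex, rose 3.19-fold (log2 1.67 ± 0.56 SE, adjusted p = 0.0330). Its call was lost without any of carcinoma 1 to 5 or disseminated 1, 3 or 5 (up to 0.0802), and without carcinoma 6 it rose log2 2.13. Cebpd, a transcription factor, ranged from 1.13 to 3.43 (median 2.21) in carcinoma 1 to 5, was -0.11 in carcinoma 6 and ran from -0.95 to 1.0 (median -0.20) in the disseminated samples, and fell 4.16-fold (log2 -2.06 ± 0.59 SE, adjusted p = 0.0141). In all, 6 of the 26 pathway genes (23.1%) were called higher and 1 (3.85%) lower, against 5.5 and 6.07% of all genes. Without carcinoma 6 the counts were 7 and 1. Il6 in the disseminated samples was lowest in disseminated 6 (3.15), the sample with the most epithelial signal. The part of leukocytes, whose markers moved with Il6, Jak2, Prdm1 and Socs3, was not tested.

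**Figure D4:**
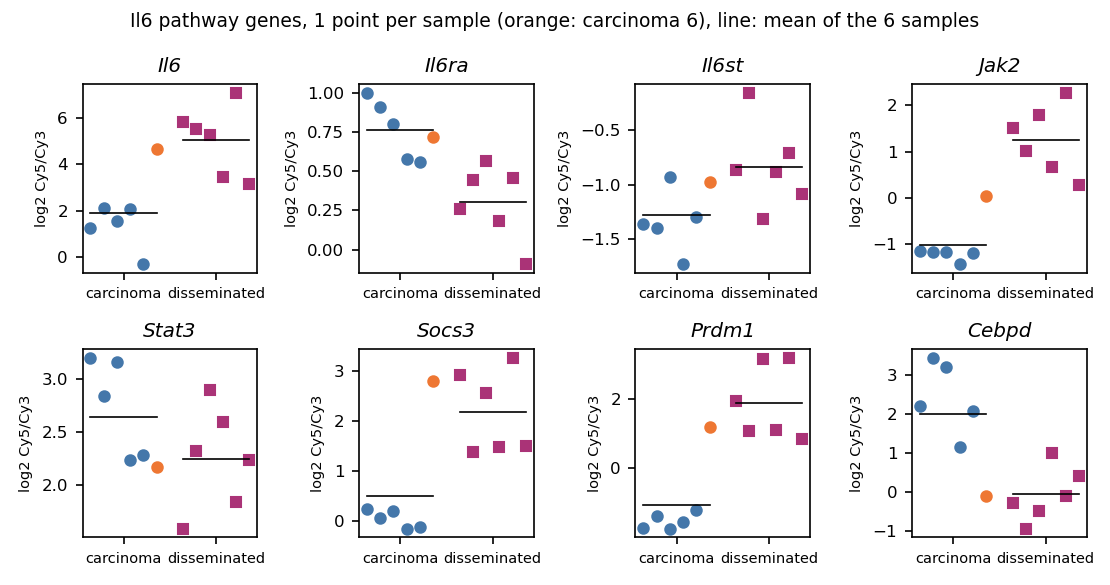
Log2 Cy5/Cy3 (y axis) of 8 genes of Il6 signaling in the carcinoma samples (circles, carcinoma 6 in orange) and disseminated samples (squares), with the mean of each group of 6 as a line. Il6, Jak2, Socs3 and Prdm1 were higher in the disseminated samples, and carcinoma 6 lay apart from carcinoma 1 to 5 in all 4.

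Many chemokines and cytokines are made by leukocytes. Of 30 genes 14 (46.7%) were higher and 2 (6.67%) lower, against 5.5 and 6.07% of all genes. Without carcinoma 6 the counts were 17 and 1. The neutrophil attractant Cxcl3 ranged from 0.29 to 1.26 (median 1.10) in carcinoma 1 to 5, was 5.46 in carcinoma 6 and ran from 4.66 to 7.70 (median 5.98) in the disseminated samples, a rise of 22.9-fold (log2 4.52 ± 0.86 SE, adjusted p = 0.00103). Il1b, interleukin 1 beta, rose 11-fold (log2 3.46 ± 0.84 SE, adjusted p = 0.00512), and its carcinoma 6 value (8.57) was within the disseminated range. Ccl4 rose 7.38-fold (log2 2.88 ± 0.95 SE, adjusted p = 0.0301), and lost its call without carcinoma 2, 3, 4 or 5 or disseminated 1, 3 or 5 (up to 0.0722). The monocyte attractant Ccl2 was highest in carcinoma 6 (4.63, against -0.061 to 3.45 in the disseminated samples) and was called only without it (log2 2.79, adjusted p = 0.00453; with all samples log2 1.79 ± 0.95 SE, adjusted p = 0.177). Csf3, the granulocyte growth factor, was 1 of the 2 lower genes, from 3.98 to 5.27 (median 5.09) in the carcinoma samples and from 1.87 to 4.66 (median 2.89) in the disseminated samples, a fall of 3.64-fold (log2 -1.86 ± 0.47 SE, adjusted p = 0.00686); the other was Ccl20, which was not called without carcinoma 6. The number of lower calls was 1 without carcinoma 1, 2, 4, 5 or 6 or disseminated 3 or 5 and 3 without disseminated 1. Cxcl1 was not called (log2 -0.69 ± 0.74 SE, adjusted p = 0.538).

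Antigen presentation by MHC class II marks macrophages, dendritic cells and B cells. Of 9 class II genes 5 (55.6%, against 5.5% of all genes) were higher. Cd74, the invariant chain, ranged from -0.64 to 0.60 (median -0.30) in carcinoma 1 to 5, was 3.39 in carcinoma 6 and ran from 2.33 to 6.09 (median 3.35) in the disseminated samples, and rose 10.4-fold (log2 3.39 ± 0.81 SE, adjusted p = 0.00487). H2-Eb1 and H2-Aa, beta and alpha chains, rose 6.80-fold (log2 2.77 ± 0.68 SE, adjusted p = 0.00543) and 4.82-fold (log2 2.27 ± 0.49 SE, adjusted p = 0.00233), while H2-Ab1 was not called (log2 0.82 ± 0.64 SE, adjusted p = 0.370). Against adenoma, on the same slides, the list median was log2 0.074, and H2-Aa in adenoma lay at 5.42 to 6.95, which covers the disseminated range from 5.34 to 6.85 almost whole. Interferon response genes were higher in 6 of 37 cases (16.2%, against 5.5% of all genes), and 11 without carcinoma 6. Cxcl9, a chemokine induced by interferon gamma, rose 8.80-fold (log2 3.14 ± 0.60 SE, adjusted p = 0.00104). The list median against carcinoma was log2 0.71 and against adenoma -1.02.

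Lysosomal genes are abundant in phagocytes. Of 26 lysosomal genes 10 (38.5%, against 5.5% of all genes) were higher, 15 without carcinoma 6 and 6 without disseminated 2, and none lower. Ctsb, a cathepsin, rose 4.86-fold (log2 2.28 ± 0.62 SE, adjusted p = 0.0109). Ctsk, a cathepsin best known from osteoclasts, rose 15.5-fold (log2 3.95 ± 0.67 SE, adjusted p = 0.000420). Of 20 extracellular protease and inhibitor genes 4 (20%) were higher, Mmp9, Adam8, Mmp19 and Mmp14, and 2 (10%) lower, Mmp15 and Timp2. Over all genes the shares were 5.5 and 6.07%. The gelatinase Mmp9, a product of neutrophils and macrophages, ranged from -2.62 to -1.78 (median -2.15) in carcinoma 1 to 5, was 1.54 in carcinoma 6 and ran from 0.15 to 3.91 (median 2.39) in the disseminated samples, a rise of 16.0-fold (log2 4.0 ± 0.71 SE, adjusted p = 0.000595). The leukocyte metalloprotease Adam8 rose 12.9-fold (log2 3.69 ± 0.75 SE, adjusted p = 0.00159). The inhibitor Timp2 fell 2.76-fold (log2 -1.46 ± 0.46 SE, adjusted p = 0.0222), and lost its call without carcinoma 1 or disseminated 3 or 5 (up to 0.0573). The 4 higher calls became 2 without carcinoma 2, 3, 4 or 5 or disseminated 1 or 2 and 6 without carcinoma 6 or disseminated 3, and the 2 lower calls became 1 without carcinoma 2, 3, 4 or 5 or disseminated 1, 3 without disseminated 4 and 0 without carcinoma 1 or disseminated 3 or 5.

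Integrins and adhesion genes separated the groups by their list mean, with -0.62 to 0.32 in the carcinoma samples and 0.84 to 1.18 in the disseminated samples. 10 of 22 (45.5%, against 5.5% of all genes) were called higher, the leukocyte integrin chains Itgal and Itgb2 among them. Cd44, the hyaluronan receptor, ranged from -1.38 to 0.062 (median -0.90) in the carcinoma samples and from 0.32 to 2.38 (median 1.91) in the disseminated samples, with no overlap, and rose 5.81-fold (log2 2.54 ± 0.36 SE, adjusted p = 0.000114). Itgb6, an integrin chain of epithelium, was the 1 lower member, down 3.37-fold (log2 -1.75 ± 0.57 SE, adjusted p = 0.0275), and lost its call without carcinoma 1, 3 or 4 or disseminated 2, 3 or 5 (up to 0.0665).

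**Figure D5:**
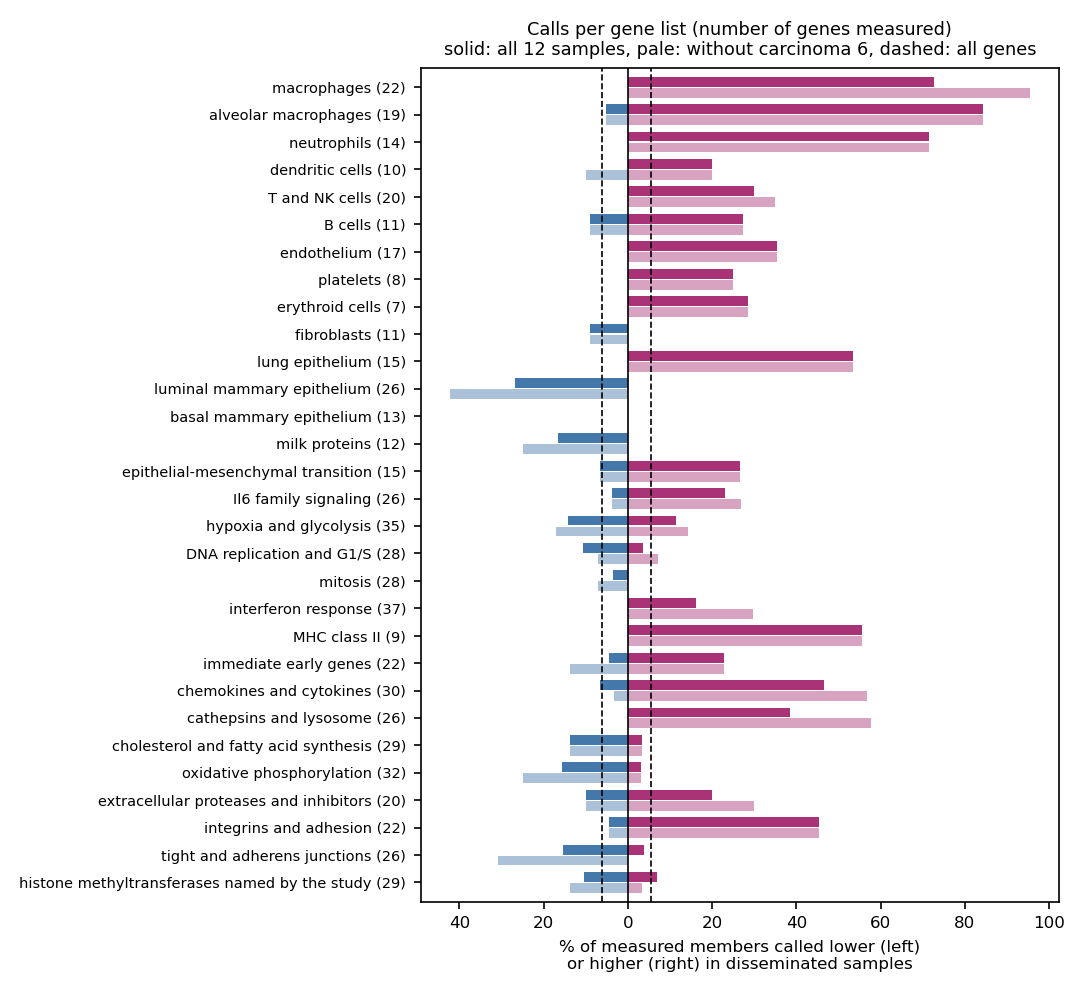
Percent of the measured members of each of 30 gene lists called lower (left) or higher (right) in the disseminated samples, with all 12 samples (solid bars) and without carcinoma 6 (pale bars); dashed lines give 6.07% and 5.5% for all genes with all 12 samples. The longest solid bars on the right are those of alveolar macrophages (84.2%) and macrophages (72.7%), and the longest solid bar on the left that of luminal epithelium (26.9%).

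Metabolic genes were called in both directions. Of 35 hypoxia and glycolysis genes 4 (11.4%) were higher, Slc16a3, Pfkfb4, Slc2a3 and P4ha1, and 5 (14.3%) lower, Ddit4, Adm, Car12, P4ha2 and Pdk1, against 5.5 and 6.07% of all genes. The lactate exporter Slc16a3 ranged from -1.41 to 0.89 (median -0.97) in the carcinoma samples and from 0.54 to 2.39 (median 1.66) in the disseminated samples and rose 4.57-fold (log2 2.19 ± 0.42 SE, adjusted p = 0.00102), while the glycolytic enzymes Aldoa (log2 -0.49 ± 0.30 SE, adjusted p = 0.250) and Ldha (log2 -0.36 ± 0.34 SE, adjusted p = 0.472) were not called. The 5 lower calls became 3 without disseminated 3 or 5. Without carcinoma 6, 5 genes were higher and 6 lower.

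Of 32 oxidative phosphorylation genes 5 (15.6%, against 6.07% of all genes) were lower, Atp5o, Ndufb5, Ndufa4, Cox5b and Cox7c. Only 1, Cox5a, was higher (3.12%, against 5.5%). Without carcinoma 6 or disseminated 6, 8 were lower, and without disseminated 5, 3. Atp5o, a subunit of ATP synthase, ranged from -0.028 to 0.86 (median 0.76) in the carcinoma samples and from -1.31 to -0.25 (median -0.62) in the disseminated samples, and fell 2.49-fold (log2 -1.32 ± 0.25 SE, adjusted p = 0.00105). The cytochrome oxidase subunits Cox5b and Cox5a changed in opposite directions, log2 -1.09 ± 0.26 SE (adjusted p = 0.00481) and 1.20 ± 0.37 SE (adjusted p = 0.0206). Cox5b lost its call without carcinoma 2 or disseminated 5 (log2 -0.91 at the least), and Cox5a without carcinoma 1 or disseminated 1 (log2 0.86 at the least).

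Of 29 lipid synthesis genes 4 (13.8%, against 6.07% of all genes) were lower, Srebf1, Ebp, Elovl6 and Pmvk. Only 1, Insig1, was higher (3.45%, against 5.5%). Srebf1, the regulator of fatty acid synthesis, ranged from 1.71 to 2.91 (median 2.46) in carcinoma 1 to 5, was -1.40 in carcinoma 6 and ran from -1.44 to 0.52 (median -0.69) in the disseminated samples, and fell 4.43-fold (log2 -2.15 ± 0.56 SE, adjusted p = 0.00807). Ebp, an enzyme of cholesterol synthesis, ranged from 1.79 to 2.60 (median 2.18) in the carcinoma samples and from 0.11 to 1.25 (median 0.58) in the disseminated samples, with no overlap, and fell 2.95-fold (log2 -1.56 ± 0.22 SE, adjusted p = 8.38e-05). Fasn, fatty acid synthase, was not called (log2 -0.69 ± 0.55 SE, adjusted p = 0.383).

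Calls among cell cycle genes were near the share over all genes (5.5% higher, 6.07% lower). Of 28 replication genes 3 were lower, Tk1, Tyms and Pola1, and 1, Slbp, higher, or 2 of each without carcinoma 6, when Pola1 was not called. Of 28 mitosis genes 1 was lower, or 2 without carcinoma 1 or 6, 3 without disseminated 4, 4 without disseminated 6 and 0 without carcinoma 5 or disseminated 3 or 5. Tk1, thymidine kinase, fell 2.53-fold (log2 -1.34 ± 0.29 SE, adjusted p = 0.00274). Ccnb1, the cyclin of mitotic entry, fell 2.87-fold (log2 -1.52 ± 0.48 SE, adjusted p = 0.0233), and lost its call without carcinoma 5 or disseminated 3 or 5 (up to 0.0605). Mki67, the proliferation antigen Ki-67, was not called (log2 0.72 ± 0.29 SE, adjusted p = 0.0693), and Cdc20, an activator of the anaphase-promoting complex, was called without carcinoma 6 (log2 -1.50, adjusted p = 0.0190) or without disseminated 4 or 6, but not with all samples (log2 -1.25 ± 0.47 SE, adjusted p = 0.0526). Against adenoma the list medians were log2 -0.79 for replication and -1.11 for mitosis.

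Immediate early genes respond within minutes to growth factors and stress. Of 22, 5 were called higher (22.7%, against 5.5% of all genes), Egr2, Dusp1, Ier5, Klf4 and Junb. The list median was log2 -0.32, against -0.0664 over all genes, so the list as a whole was not raised. List means overlapped, with 0.75 to 1.29 in the carcinoma samples and 0.81 to 1.34 in the disseminated samples. Egr2 ranged from -0.57 to -0.22 (median -0.47) in carcinoma 1 to 5, was 2.14 in carcinoma 6 and ran from 1.02 to 2.74 (median 2.35) in the disseminated samples, and rose 4.36-fold (log2 2.12 ± 0.40 SE, adjusted p = 0.000897). Junb was just past the 2-fold threshold (log2 1.05 ± 0.20 SE, adjusted p = 0.00108), and was below it without carcinoma 4 or 5 or disseminated 3 or 5 (log2 0.92 at the least). Jund was called lower only without carcinoma 6 (log2 -1.64, adjusted p = 0.0195; with all samples log2 -1.09 ± 0.61 SE, adjusted p = 0.204). The 1 lower call with all samples, Klf2, came from 1 of its 2 probes, and the other probe was called higher, so its direction is uncertain. The lower calls were 3 without carcinoma 6, 2 without carcinoma 4 or disseminated 2 and 0 without carcinoma 1, 3 or 5 or disseminated 6, and the higher calls were 3 without disseminated 3.

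The study singled out a set of histone methyltransferases and related genes, so the list is not independent evidence of its direction. Of 29 genes, Kmt5a and Setd1b (6.9%) were higher and Setd5, Prmt1 and Smyd3 (10.3%) lower, against 5.5 and 6.07% of all genes, so the shares were near the background. Without carcinoma 6, 1 was higher and 4 were lower. Kmt5a, which methylates histone H4, ranged from -0.19 to 0.65 (median 0.30) in the carcinoma samples and from 1.09 to 1.74 (median 1.45) in the disseminated samples, with no overlap, and rose 2.25-fold (log2 1.17 ± 0.20 SE, adjusted p = 0.000468). Setd1b rose 2.13-fold (log2 1.09 ± 0.27 SE, adjusted p = 0.00580), and was below 2-fold without carcinoma 6 or disseminated 3 (log2 0.98 and 0.88), which left 1 higher call in the list. Prmt1, an arginine methyltransferase, ranged from -3.81 to -3.0 (median -3.39) in the carcinoma samples and from -5.62 to -4.09 (median -5.0) in the disseminated samples, and fell 2.91-fold (log2 -1.54 ± 0.32 SE, adjusted p = 0.00192). Smyd3 also had no overlap, from -0.50 to -0.17 (median -0.30) in the carcinoma samples and from -2.02 to -1.24 (median -1.48) in the disseminated samples, and fell 2.39-fold (log2 -1.26 ± 0.11 SE, adjusted p = 2.71e-06). Setd5 fell 3.09-fold (log2 -1.63 ± 0.39 SE, adjusted p = 0.00461). For Setd5 and Smyd3 the mean over all probes of the gene was below 2-fold (log2 -0.23 and -0.45).

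Other genes of chromatin and signaling that the study named are given in the same way. Setd2, the methyltransferase of histone H3 lysine 36, was higher by log2 0.96 ± 0.21 SE, adjusted p = 0.00282, just under the 2-fold threshold, and passed it without carcinoma 1 or 2 or disseminated 6. Setd4 was lower by log2 -0.73 ± 0.17 SE, adjusted p = 0.00383, also under 2-fold, and Suv39h1 was not called (log2 0.23 ± 0.11 SE, adjusted p = 0.139). Aebp2, a cofactor of the Polycomb complex PRC2, ranged from -2.28 to -1.44 (median -1.94) in the carcinoma samples and from -1.30 to 0.46 (median -0.62) in the disseminated samples, and rose 2.61-fold (log2 1.39 ± 0.32 SE, adjusted p = 0.00365); it was well above background on 3 of 6 carcinoma and 5 of 6 disseminated arrays. Dyrk3, a kinase, fell 2.96-fold (log2 -1.57 ± 0.57 SE, adjusted p = 0.0466), and lost its call without any of carcinoma 1 to 5 or disseminated 2, 3, 5 or 6 (up to 0.108).

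Leaving out carcinoma 6 moved the difference by more than 1.5 times on the linear scale for 25 of these 110 called genes. Beside those already given, the rises without it were log2 7.12 for Rnase2a, 6.76 for Ear1, 6.11 for Treml4, 6.13 for Itgal, 4.71 for Slc15a3, 6.29 for Zeb2 and 5.16 for Adgre1. For genes of neutrophils, platelets and inflammation they were log2 3.15 for Hdc, 5.01 for Retnlg, 4.55 for Pf4, 3.76 for Ccl4, 5.27 for Cxcl3 and 4.29 for Il1b. They were log2 3.99 for Cd74, 3.39 for H2-Eb1, 4.45 for Adam8, 4.62 for Mmp9, 4.50 for S100a4 and 4.77 for Napsa, and the difference of Srebf1 was log2 -2.77. Of the other samples, leaving out disseminated 6 moved Krt8 to log2 -3.87 and Krt18 to -3.78, leaving out disseminated 4 moved Ctss to 6.85, leaving out carcinoma 5 moved Lyz2 to 4.95, and leaving out disseminated 2 moved Ms4a1 to 1.34.

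The 5 adenoma samples, on the same slides as the disseminated samples, and the 5 samples of metastases, on the slides of the carcinomas, were compared with the disseminated samples in the same fit. Against adenoma 3015 genes (10.5%) were called, and against metastases 2049 (7.12%), while carcinoma differed from adenoma in 949 genes (3.3%). Chil3 was -1.61 to -0.26 in adenoma and 2.80 to 9.76 in metastases, so that disseminated minus adenoma was log2 8.68, adjusted p = 4.29e-05, and disseminated minus metastases 1.04, adjusted p = 0.565. For Csf1r the same differences were 4.79, adjusted p = 0.00148, and 2.04, adjusted p = 0.134. Sftpc was 4.87 to 6.52 in metastases, a difference of -0.28, adjusted p = 0.810, and Vwf differed from metastases by 1.58, adjusted p = 0.0263.

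For epithelial genes and Il6 the same differences were as follows. Krt18 was 1.29 to 2.79 in adenoma (difference -2.63, adjusted p = 0.0584) and -3.59 to 2.65 in metastases (-1.43, adjusted p = 0.369). Il6 was -1.11 to 1.66 in adenoma (4.87, adjusted p = 0.000700) and 3.17 to 5.73 in metastases (0.64, adjusted p = 0.665). The leukocyte genes Itgal and Spn were among those also called against metastases (3.12, adjusted p = 0.00498, and 3.52, adjusted p = 0.00664).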

How the data were processed

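The authors hybridised 2-colour Agilent arrays, sample RNA amplified in 2 rounds and labelled Cy5 against a common mouse reference in Cy3, and scanned them with Agilent Feature Extraction 10.7 per the labels. The deposited intensity values of each array (45018 spots) were the starting point, and the deposited table of the authors' log2 ratios, normalized with limma, served as an alternative. Columns of 22 progression arrays were processed together; 16 chemotherapy arrays were not used. With R 4.3.3 and limma 3.58.1, background was corrected by normexp (offset 50), arrays were normalized by loess within and by quantile between arrays, outlier-flagged spots and controls were removed, and spots were averaged per probe. The probe with the highest mean signal stood for each of 28786 genes, of which 18421 had a symbol in the reference table. Groups were compared in 1 linear model over the 22 arrays with limma's moderated test, without the replicate block, and Benjamini-Hochberg adjustment over all genes. The arrays' number limits the precision. The script for the test was tested on simulated data. Figures used matplotlib 3.10.9.

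Named were, with not every gene printed, the 15 largest rises and 15 largest falls among called genes with a reference symbol, no overlap between groups and signal well above background and unsaturated on all 12 arrays. Added were, of each list, the 4 members with the highest signal and the called members with the largest rise and fall, all members of lists of 12 or fewer, and genes the study named. Ear10, Adgre1, Csf1r, Spi1, Marco, Epcam, Cdh1, Il6st, Jak2, Il1b, Ctsk, Smyd3 and list members named only to spell out small counts were chosen after their values were seen. Some genes that the rule names are not reported here. Klf2 got no values because its probes were called in opposite directions. The groups, genes and lists were chosen with earlier results of these data known.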

Additional observations from a re-analysis of the deposited data

Results flagged for a closer look

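Within each group of 6 samples, a sample was singled out when its gap to the nearest other sample was larger, as a share of the range of the group, than Dixon's critical value, which chance does in about 1 in 20 groups. Of 138 named genes 51 (37%) had such a sample among the carcinomas, and in 50 of them it was carcinoma 6. Among the disseminated samples 4 genes (2.9%) had one, and 11 of 30 gene lists had one in the carcinomas and 0 of 30 in the disseminated samples. The genes of a group share the same 6 samples and were chosen with earlier results known. These shares can therefore not be set against 1 in 20.

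The values of carcinoma 6 in log2 ratio to the reference were high for macrophage and leukocyte genes: Adgre1 3.394, Csf1r 4.028, Lyz2 6.784, Ctss 7.766, Tyrobp 5.185, Itgal 1.49, Fpr2 4.891, Adgre5 1.496, Arhgap30 -0.2746, Cyfip2 -0.3354, Serpina3g 1.765, Zeb2 1.884, Chil4 1.678, Ear10 1.459, Retnlg 4.345, Irf8 3.089 and Ccr7 2.819. They were high too for class II genes (H2-Aa 5.928, H2-Ab1 7.492, Cd74 3.389, H2-Eb1 4.899), for chemokines (Ccl5 3.488, Ccl4 9.244, Ccl2 4.628, Cxcl3 5.461, Cxcl9 4.35), for the platelet genes Pf4 (3.554) and Ppbp (0.6942), and for Ctsb (4.033), Ctsk (2.466), Adam8 (1.149), Mmp9 (1.539), S100a4 (-0.4108), Socs3 (2.807), Prdm1 (1.2), Jak2 (0.03367), Egr2 (2.139), Napsa (0.9274) and Cox5a (1.162). Carcinoma 6 was the low sample for Plet1 (8.823), Krt14 (2.455), Crb3 (2.758), Pkp3 (2.743), F11r (-0.009202), Cdc20 (-2.663), Atp5o (-0.02845), Srebf1 (-1.396), Fasn (-2.164), Jund (0.8438) and Setd2 (-1.663). Marco was the exception, with carcinoma 1 as the high sample (1.348).

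The same held for list means, with carcinoma 6 at 4.386 for macrophages, 3.205 for neutrophils, 0.2052 for platelets, 3.927 for MHC class II, 3.48 for chemokines, 1.926 for lysosome and 0.4717 for proteases as the high sample. It was the low sample at 1.495 for luminal epithelium, 1.121 for junctions, -0.9901 for lipid synthesis and -0.9042 for histone methyltransferases. In the disseminated samples the values were 3.495 for Retnlg and 7.468 for Ltf in disseminated 6, 1.515 for Krt5 in disseminated 3 and 2.483 for Cox5a in disseminated 1.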

How the results depend on the processing

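The count of called genes ran from 2343 (adjusted p below 0.01) to 4797 (the scanner's processed signals) around 3330, and of the named genes Stat3 reversed, from a difference that was not called, to log2 0.2496 (adjusted p = 0.3763) with the mean of all probes. With the scanner's processed signals 2642 genes were called lower and 1541 at 4-fold, and with carcinoma 6 and disseminated 6 both left out, a choice made after seeing the data, 1390 at 4-fold. Leaving out 1 sample gave 2708 (without disseminated 5) to 4115 (without carcinoma 6) called genes and 666 to 1193 at 4-fold. Of 3864 values of named genes under alternatives, 3638 kept direction and call, 176 lost the call, 49 gained it and 1 reversed. With the replicate block 3219 genes were called, 1563 higher and 1656 lower, and Pf4, Ctnnd1 and Dyrk3 lost their call. Deviations of same-numbered samples correlated at -0.344 to 0.157, and 0 of 6 correlated best with their own number. No pairing by number was thus seen, but with mixed cells and pooled lungs this check cannot exclude one. With the slide as a random block 3213 genes were called and the same 3 genes lost their call. The study's legends name t-tests without their form. An equal-variance t-test, chosen here, called 3558 genes at unadjusted p below 0.05 and 2-fold and 2718 after Benjamini-Hochberg adjustment. The difference moved by over 1.5 times for 29 of the 110 called genes followed, with the scanner's processed signals, 22 with the mean of all probes, 7 with Aquantile, 3 with offset 0 and 2 with the deposited ratios. The scanner's processed signals lost the calls of S100a9, Alas2, Sftpc, Ccl4 and H2-Aa. Between 63.8 and 76.7% of spots were well above background, and 4129 genes were dim in both groups. The causes were not tested.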
